A study of Homo sapiens with 12 samples.

Results

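Matrix metalloproteinases (MMPs) and their tissue inhibitors (TIMPs) were followed in THP-1 cells, a line from a human monocytic leukaemia that the phorbol ester PMA turns macrophage-like. The 10 genes were chosen by symbol, MMP1, MMP2, MMP7, MMP9, MMP10, MMP14, MMP19, TIMP1, TIMP2 and TIMP3. The platform's gene table gives them 29 of the 44988 probe sets that carry 1 gene symbol, and none of the 29 is shared with another symbol. Transcripts were measured on 12 Affymetrix PrimeView arrays in 4 groups of 3. According to the labels' protocols the cells of every group were first treated with 100 ng/ml PMA for 48 hours. Cells of the temperature experiment were then held at 37 °C or at the fever-like 40 °C. Harvests at 2, 8 and 24 hours at 40 °C are described, and the labels do not say which of them the arrays hold. The inhibitor experiment compared cells labelled siRNA and siThermomir with cells labelled WT and control. Its protocol describes differentiation at 40 °C, nucleofection with a 2'-O-methylated hairpin inhibitor of a microRNA, or a non-human control hairpin, together with a GFP plasmid, and sorting of GFP-positive cells 24 hours later. Which microRNA was blocked, and whether the controls received the control hairpin, is not stated. The labels do not tie the 3 arrays of a group to separate cultures. The p-values therefore rest on array-to-array spread that may be only technical.

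MMPs are zinc-dependent endopeptidases that cut extracellular matrix, cytokines and cell surface proteins. They are made as inactive proenzymes, and TIMPs block the active site of the mature enzymes. Macrophages secrete several of them, and TIMP2 together with the membrane-bound MMP14 takes part in the activation of proMMP2. The promoters of many MMP genes carry a site for AP-1, the FOS and JUN dimer that phorbol esters activate.

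Upstream sequences are shown first because PMA acts on AP-1, and because MMP7 and MMP10, both in the MMP cluster of chromosome 11, share 2 of the searched motifs while only MMP7 passed the filter on low signal. RefSeq promoters (GRCh38.p14) were matched for MMP7, MMP10, MMP14, TIMP1 and TIMP3. The 250 bases upstream of the start site were searched on both strands for TGANTCA (AP-1), GAANNTTC (the core of a heat shock element) and TATAAA. The first of these was present in 2 of the 5, MMP7 and MMP10, and in 6.6% of 27305 promoter windows of the same length. A match to GAANNTTC was found in MMP10 (5.85% of all windows), and TATAAA in MMP7 and MMP10 (11.1% of all windows). No match overlapped another. In the sequences below, each 5′ to 3′ on the gene's own strand, capitals mark TGANTCA and GAANNTTC matches. MMP7 lies on the minus strand at chr11:102530748-102530997, MMP10 on the minus strand at chr11:102780629-102780878, and TIMP3, a gene whose transcript fell at 40 °C, on the plus strand at chr22:32801455-32801704.
MMP7: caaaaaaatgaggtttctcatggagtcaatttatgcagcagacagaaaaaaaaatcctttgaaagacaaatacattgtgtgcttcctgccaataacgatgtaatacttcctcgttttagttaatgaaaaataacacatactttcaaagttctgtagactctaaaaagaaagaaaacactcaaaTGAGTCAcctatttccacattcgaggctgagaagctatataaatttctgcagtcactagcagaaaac
MMP10: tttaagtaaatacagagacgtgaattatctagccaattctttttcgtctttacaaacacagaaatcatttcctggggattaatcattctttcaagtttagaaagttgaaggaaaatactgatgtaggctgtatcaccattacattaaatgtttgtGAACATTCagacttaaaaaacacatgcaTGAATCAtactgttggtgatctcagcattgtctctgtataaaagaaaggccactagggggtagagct
TIMP3: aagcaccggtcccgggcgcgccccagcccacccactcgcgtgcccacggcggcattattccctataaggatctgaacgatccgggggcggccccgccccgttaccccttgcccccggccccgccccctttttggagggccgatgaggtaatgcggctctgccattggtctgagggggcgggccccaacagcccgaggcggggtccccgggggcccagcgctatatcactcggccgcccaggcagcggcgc
The AP-1 match began 67 bases upstream of the start site in both MMP7 (TGAGTCA) and MMP10 (TGAATCA). The windows of MMP14, TIMP1 and TIMP3 held no match to any of the searched patterns, which says only that these letters are not there.

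Values are the deposited log2 signals, and each gene was represented by its probe set with the highest mean over the 12 arrays. A gene was tested where that mean was at or above log2 4.48, the 30th percentile over probe sets other than controls. Of the 10 genes, 9 passed, as did 13909 of 18132 genes on the array, and 26 of the 29 probe sets passed as well. MMP10 (stromelysin 2) did not pass. Its only probe set read 2.70 to 2.89 on all 12 arrays, at the low end of the signal. Levels of different genes are not compared, because probe sets differ in response. Group SDs of the 10 genes ran from 0.02 to 0.31, and 3 of the 40 exceeded 0.2.

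The cells carried macrophage transcripts: all 7 measured macrophage markers (CD14, CD68, CSF1R, CD163, ITGAM, LYZ, TYROBP) had group means above the filter's signal in every group. The lowest of these means was that of CD163 at 37 °C, 5.30. Depending on the group, 3 to 5 of 8 fibroblast, 3 of 5 epithelial and 3 to 4 of 5 lymphocyte markers also reached that signal. Passing the filter therefore does not set the lists apart. Macrophage markers averaged 9.45 to 10.39 per array. Fibroblast markers averaged 4.21 to 4.67 per array, though the mean of PDGFRA was 8.0 at 37 °C, and epithelial markers averaged 4.65 to 5.09, with CLDN4 at group means of 7.01 to 7.29 and KRT5 at 5.62 to 5.93. Array medians lay between 5.72 and 5.87. Poly-A spikes, bacterial RNAs added before labelling, read 7.66 to 7.80 in the temperature experiment, 6.81 to 7.47 in the controls and 5.51 to 6.0 with the inhibitor. The actin control probe sets gave a 3′ signal above the 5′ signal by 1.55 ± 0.04 at 37 °C, 1.58 ± 0.22 at 40 °C, 2.44 ± 0.09 in controls and 2.70 ± 0.16 with the inhibitor (SD, n = 3 each). For GAPDH the same gap was 0.38 ± 0.02, 0.44 ± 0.10, 1.04 ± 0.04 and 0.72 ± 0.09. The inhibitor experiment thus had larger end gaps than the temperature experiment on every array.

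**Figure D1:**
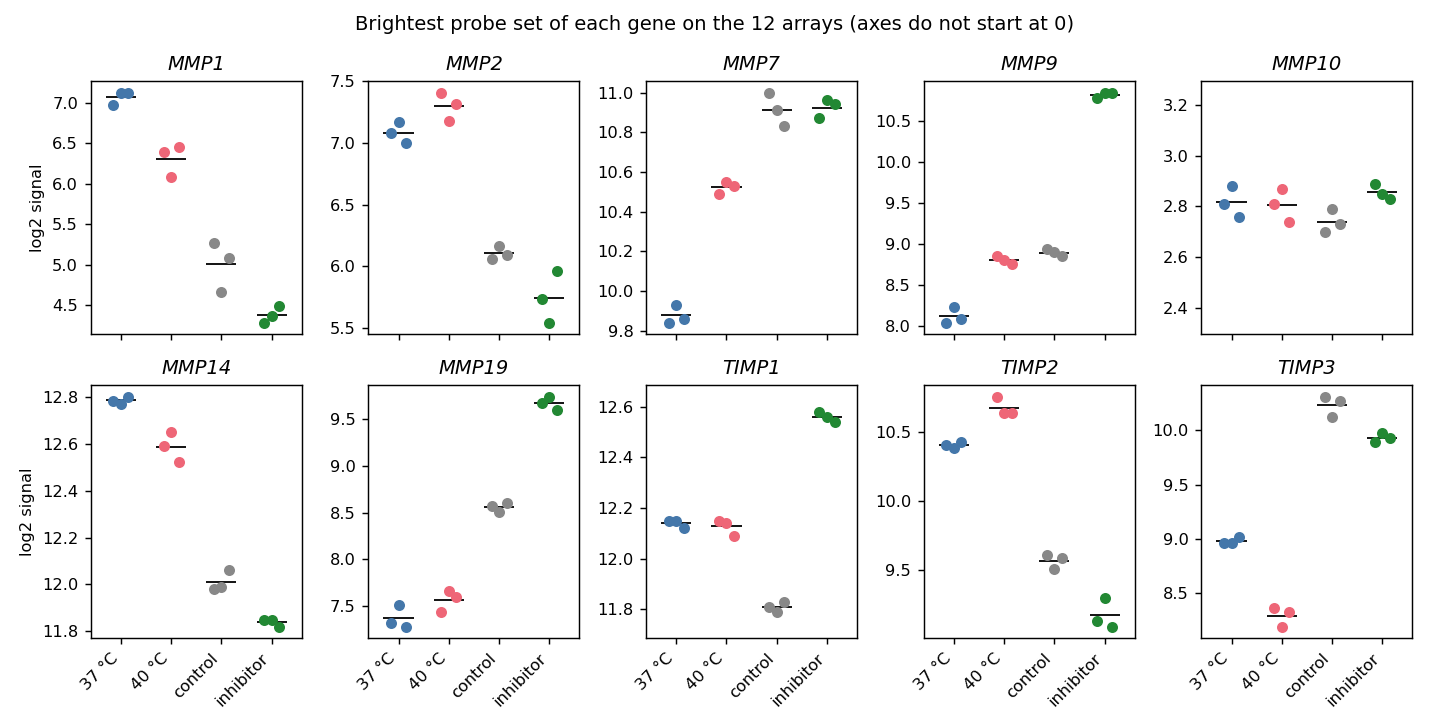
Log2 signal of the brightest probe set of each of the 10 genes (vertical axes, each with its own range) on the 3 arrays of each group (points) with the group mean (bars). MMP9 rises from 8.12 at 37 °C to 8.81 at 40 °C and stands at 10.82 with the inhibitor, and MMP10 stays between 2.70 and 2.89 on every array.

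The first comparison asked how the fever-like temperature relates to these transcripts. At 40 °C the secreted proteases MMP7 and MMP9 were higher and MMP1 and the inhibitor TIMP3 lower, each by about the same factor of 1.57 to 1.70. In all, 4 of the 9 tested genes rose, 3 fell and 2 were not called (limma, Benjamini-Hochberg adjusted p under 0.05 over all genes tested). Among all genes 21.6% were called higher and 17.7% lower, so a call alone says little at this spread, and sizes are given for each gene. The median difference of the 9 was 0.20 on the log2 scale, against 0.01 over all genes. That median is the value of MMP19, which was not called.

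MMP9 is gelatinase B, a secreted enzyme that cuts denatured collagen and type IV collagen. Its single probe set read 8.04, 8.23 and 8.09 at 37 °C and 8.85, 8.81 and 8.76 at 40 °C. Every array at 40 °C was above every array at 37 °C. The increase was 1.61-fold, a log2 difference of 0.69 (SE 0.06, adjusted p = 9.76e-05). Among the differences of all 13909 tested genes, from the highest down, it ranked 236.

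MMP7, matrilysin, is a small MMP without the hemopexin domain of its relatives. Signals of 9.84, 9.93 and 9.86 at 37 °C stood against 10.49, 10.55 and 10.53 at 40 °C. The groups did not overlap, and the gene was 1.57-fold higher (0.65, SE 0.05, adjusted p = 3.98e-05). Its 3 probe sets past the filter were all called higher, by 0.62 to 0.69, and the remaining one, at a mean of 3.57, was not tested.

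MMP1, interstitial collagenase, cleaves fibrillar collagens, and its gene lies in the same chromosome 11 cluster as MMP7 and MMP10. It read 6.97, 7.12 and 7.13 at 37 °C and 6.39, 6.08 and 6.46 at 40 °C. No array at 40 °C reached the 37 °C range. The decrease was 1.70-fold (−0.76, SE 0.10, adjusted p = 0.000617), and the other MMP1 probe set fell by 0.81 on the log2 scale. Genes of this cluster therefore moved in opposite directions, MMP7 up and MMP1 down.

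MMP14 encodes a membrane-anchored MMP that activates proMMP2. Signals were 12.78, 12.77 and 12.80 at 37 °C and 12.59, 12.65 and 12.52 at 40 °C. The groups did not overlap, but the decrease was small, 1.15-fold (−0.20, SE 0.05, adjusted p = 0.0134). Of its 4 probe sets 3 were called lower, and the faintest differed by −0.24 and was not called (adjusted p = 0.0783).

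MMP2, gelatinase A, was called higher by 1.16-fold (0.22, SE 0.07, adjusted p = 0.0413), from 7.08, 7.17 and 7.0 at 37 °C to 7.41, 7.18 and 7.32 at 40 °C. The nearest arrays of the groups were 0.01 apart. Only this brightest of its 4 probe sets was called. The call was lost without replicate 1 or 3 at 37 °C (adjusted p = 0.0988 and 0.128), without replicate 1 or 3 at 40 °C (0.118 and 0.104), and in 6 other alternatives. MMP19, first described as an autoantigen of rheumatoid arthritis, differed by 0.20 (SE 0.08, adjusted p = 0.0884) and its groups overlapped. It was called without replicate 2 at 37 °C (adjusted p = 0.0269) or replicate 1 at 40 °C (0.0407), with trend and robust eBayes (0.0354) and with array weights (0.0231). The average of its probe sets differed by −0.002, and its 5 probe sets ranged from −0.12 to 0.20.

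Among the inhibitors, TIMP3, which binds to matrix and also inhibits ADAM proteases, was lower. It read 8.96, 8.96 and 9.02 at 37 °C and 8.36, 8.19 and 8.33 at 40 °C. The groups were clearly apart, with a decrease of 1.61-fold (−0.69, SE 0.06, adjusted p = 7.39e-05), and all 3 TIMP3 probe sets were called lower. TIMP2, the partner of MMP14 in proMMP2 activation, was 1.21-fold higher (0.27, SE 0.05, adjusted p = 0.00344), from 10.41, 10.39 and 10.43 to 10.76, 10.64 and 10.64, and its second probe set rose by 0.35. TIMP1, the inhibitor best known as a partner of proMMP9, differed by −0.01 (SE 0.04, adjusted p = 0.841), at 12.15, 12.15 and 12.12 against 12.15, 12.14 and 12.09. Its groups overlapped, as they did for all 3 of its probe sets.

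Over the 26 probe sets past the filter, 7 were called higher and 8 lower at 40 °C, where 19.9% and 17.6% of all 31682 tested probe sets were. No gene had probe sets called in opposite directions in this comparison. When each array's poly-A spike level entered the fit, MMP1, MMP7, MMP9 and TIMP3 were called, and MMP2 (0.16, adjusted p = 0.415), MMP14 (−0.25, adjusted p = 0.0803) and TIMP2 (0.27, adjusted p = 0.0787) were not. Spike levels ran from 7.66 to 7.73 at 37 °C and from 7.73 to 7.80 at 40 °C. The ranges only touched, so this fit separates spike level from group poorly. A call lost in it does not show that a difference goes with the spikes.

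**Figure D2:**
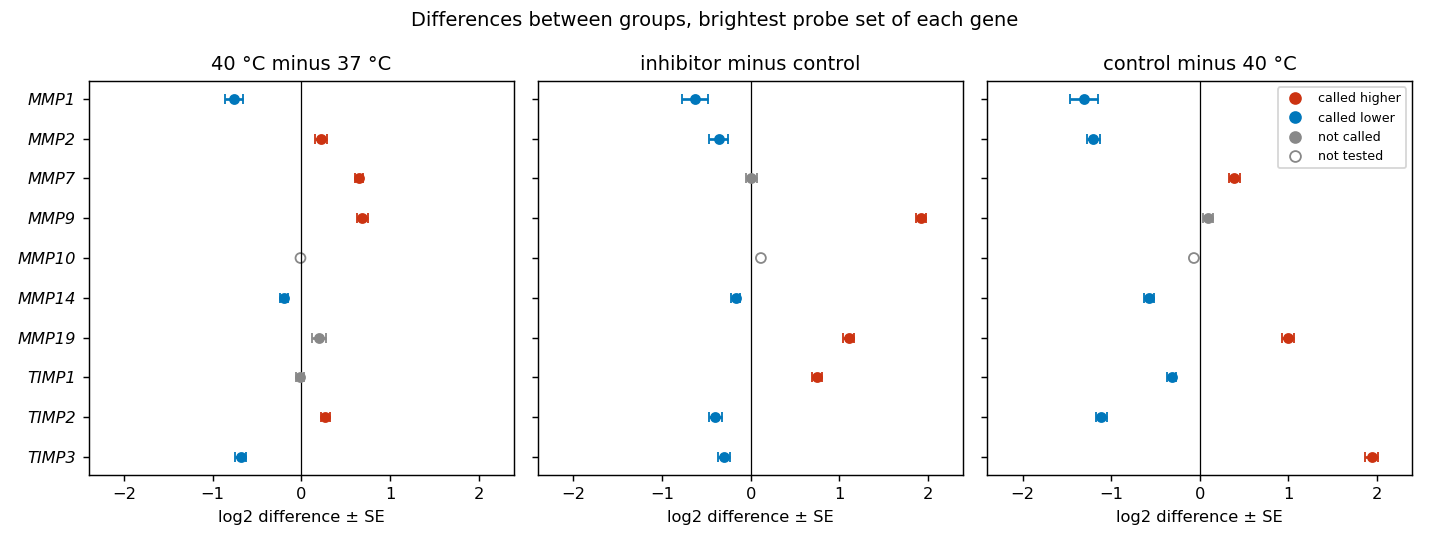
Log2 difference of each gene's brightest probe set in the 3 comparisons (horizontal axis, with the SE of the fit), coloured by call. At 40 °C MMP7 and MMP9 lie near 0.65 and 0.69 and TIMP3 near −0.69, and with the inhibitor MMP9 lies at 1.93.

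Genes around the pathway, from lists chosen by function, were also read at 40 °C. Of 7 further MMPs tested, MMP15 was called, at 0.17, and its call was lost without replicate 1 or 3 at 37 °C or replicate 2 or 3 at 40 °C. MMP12, macrophage elastase, had means of 3.14 and 2.96 and was not tested. Other inhibitors had 1 higher and 2 lower of 6. RECK, a membrane-anchored MMP inhibitor, was 1.65-fold higher (adjusted p = 0.000103) and SPOCK1, a matrix proteoglycan, 1.70-fold lower (0.000287). In the plasminogen system, which activates MMPs outside the cell, 1 rose and 1 fell of 8. PLAU, the urokinase protease, was 1.93-fold higher (adjusted p = 7e-06), and its receptor PLAUR differed by −0.17, a call lost without replicate 2 at 37 °C or replicate 3 at 40 °C and with the mean of its probe sets (−0.004). ADAM proteases had none higher and 4 lower of 11, led by the aggrecanase ADAMTS4 (2.20-fold) and by ADAMTS1 (1.98-fold), a protease of the same family. Of 13 AP-1 and ETS factors, 2 rose and 3 fell: FOSL2 was 1.82-fold and JUN 1.56-fold higher, while FOS differed by 0.02 (SE 0.04). MMP partners and receptors had 5 higher and 2 lower of 13, with the proteoglycan SDC1 1.65-fold and the tetraspanin CD82 1.39-fold higher. Matrix genes had 2 higher and 2 lower of 13, with LAMC1 1.47-fold and SPARC 1.40-fold higher.

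Cell type markers moved with temperature too. Of the 7 macrophage markers 6 were higher at 40 °C and 1 lower (mean over the list 10.01 to 10.04 at 37 °C and 10.26 to 10.39 at 40 °C), and 4 of 4 tested granulocyte precursor markers were lower (6.99 to 7.07 against 6.54 to 6.63 over the list of 5). Their part in the MMP and TIMP differences was not tested. In bulk RNA, fewer cells of a type and less RNA per cell cannot be told apart.

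The second comparison set the cells given the thermomiR inhibitor against their controls, both from cells differentiated at 40 °C. At the brightest probe sets MMP9 was 3.80-fold, MMP19 2.16-fold and TIMP1 1.68-fold higher with the inhibitor. MMP1, MMP2, TIMP2 and TIMP3 were lower there by 1.23-fold to 1.54-fold. Other probe sets of these genes were lower by 1.04-fold (MMP2, not called) to 1.74-fold (TIMP2). MMP14 was lower as well, by 1.13-fold to 5.10-fold depending on the probe set. Of the 9 tested genes 3 rose, 5 fell and 1 was not called, against a background of 25.7% higher and 19.6% lower over all genes. The median difference of the 9 was −0.17, the value of the brightest MMP14 probe set, and that over all genes 0.09.

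MMP9 read 8.94, 8.90 and 8.85 in controls and 10.78, 10.84 and 10.85 with the inhibitor. The lowest inhibitor array exceeded the highest control array by more than the whole spread within either group. The log2 difference was 1.93 (SE 0.06, adjusted p = 2.42e-06), and MMP9 ranked 7 among increases of the 13909 genes. MMP9 is read by a single probe set, so no other probe set of the gene checks this value.

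MMP19 signals were 8.57, 8.51 and 8.60 in controls and 9.67, 9.74 and 9.60 with the inhibitor, a log2 difference of 1.11 (SE 0.06, adjusted p = 2.39e-05) without overlap. All 4 of its tested probe sets were called higher, by 1.11 to 1.72, and the gene ranked 60 among increases. TIMP1 rose from 11.81, 11.79 and 11.83 to 12.58, 12.56 and 12.54 (0.75, SE 0.05, adjusted p = 5.32e-05). Its second probe set rose by 0.80 on the log2 scale, and a far fainter one differed by 0.30 and was not called (adjusted p = 0.167). The protease MMP9 and TIMP1, which binds its proenzyme, were therefore both higher with the inhibitor.

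TIMP2 and TIMP3 went the other way from TIMP1. TIMP2 read 9.61, 9.51 and 9.59 in controls and 9.13, 9.30 and 9.09 with the inhibitor, 1.32-fold lower (−0.40, SE 0.07, adjusted p = 0.00372), and its other probe set fell by 0.80 on the log2 scale. TIMP3 read 10.31, 10.12 and 10.27 against 9.89, 9.97 and 9.93, 1.23-fold lower (−0.30, SE 0.07, adjusted p = 0.0093), with all 3 probe sets called lower. Neither gene's groups overlapped.

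MMP1 was 1.54-fold lower (−0.63, SE 0.15, adjusted p = 0.0115), from 5.27, 4.66 and 5.08 in controls to 4.28, 4.36 and 4.49 with the inhibitor. The other MMP1 probe set fell less, by 0.37 on the log2 scale (adjusted p = 0.0107). The mean of the brighter one with the inhibitor, 4.38, was below the filter's signal. Whether low signal limited the size of the decrease was not tested. MMP7 differed by 0.01 (SE 0.07, adjusted p = 0.911), with 11, 10.91 and 10.83 in controls and 10.87, 10.96 and 10.94 with the inhibitor. The faintest of its 3 tested probe sets was called higher (0.27, adjusted p = 0.0149), and the remaining one differed by 0.01.

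MMP2 was called lower by 1.28-fold (−0.36, SE 0.11, adjusted p = 0.0271), from 6.06, 6.16 and 6.09 to 5.73, 5.54 and 5.96. The call was lost without any one of the 3 controls or without inhibitor replicate 1 (adjusted p = 0.0573 to 0.0767), and the 4 probe sets ranged from −0.36 to −0.05. The brightest MMP14 probe set was called lower by 1.13-fold (−0.17, SE 0.06, adjusted p = 0.0393), from 11.98, 11.99 and 12.06 to 11.85, 11.85 and 11.82. That call was lost when any 1 of the 6 arrays was left out (adjusted p = 0.0519 to 0.148) and when every probe set was tested on its own (0.0623).

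The 4 probe sets of MMP14 disagreed in size. In order of brightness they differed by −0.17, −0.29, −1.11 and −2.35 between inhibitor and control, and their average by −0.98 (adjusted p = 6.57e-06). The faintest read 8.37, 8.39 and 8.64 in controls and 6.06, 6.14 and 6.15 with the inhibitor, a 5.10-fold decrease (adjusted p = 5.69e-06). Between the controls and untransfected 40 °C cells the same probe set differed by 0.77 while the brightest differed by −0.58, both called. No single MMP14 value therefore stands for the gene in the inhibitor experiment. The end gap of actin rose and that of GAPDH fell between control and inhibitor arrays, as given above, and their part in the disagreement was not tested.

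**Figure D3:**
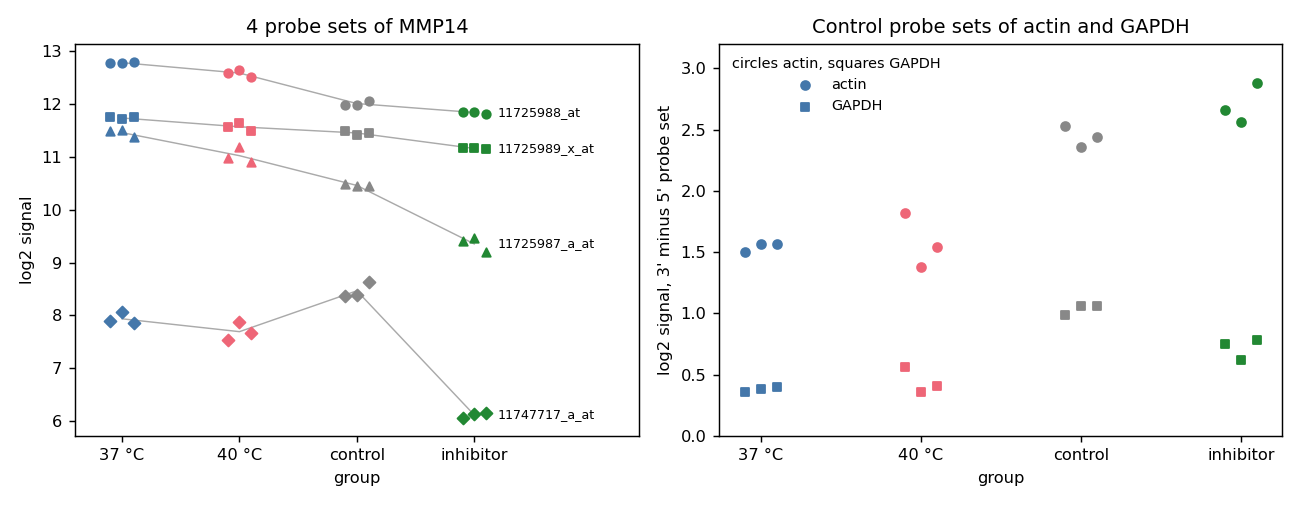
Left, log2 signal of the 4 MMP14 probe sets on the 12 arrays (points, 1 marker per probe set, lines join group means). Right, the log2 signal of the 3′ control probe set minus that of the 5′ one for actin (circles) and GAPDH (squares). The faintest MMP14 probe set drops by 2.35 from control to inhibitor while the brightest drops by 0.17, and the actin gap is above 2.3 on all 6 arrays of the inhibitor experiment.

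Over all 26 tested probe sets, 8 were called higher and 12 lower with the inhibitor, against 21.3% and 22% of all tested probe sets. No gene had probe sets called both ways. The poly-A spikes differed between these groups, at 7.07 ± 0.35 in controls and 5.83 ± 0.27 with the inhibitor (SD, n = 3 each). Their ranges did not overlap, so a fit with the spike level separates it from the group only poorly. A call lost in that fit does not show that a difference goes with the spikes. When each array's spike level entered the fit, 236 of all genes were called (52 higher and 184 lower) rather than 6290 (3568 higher and 2722 lower). MMP9 (1.88, adjusted p = 0.0119), MMP19 (1.13, adjusted p = 0.0474) and MMP1 (−1.48, adjusted p = 0.0434) were among them, and TIMP1 (0.74, adjusted p = 0.0811) was not. TIMP2 (−0.38, adjusted p = 0.402), TIMP3 (−0.52, adjusted p = 0.197), MMP2 (−0.58, adjusted p = 0.348) and MMP14 (−0.16, adjusted p = 0.65) were not called either, at differences that were about as large as without the covariate or larger.

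**Figure D4:**
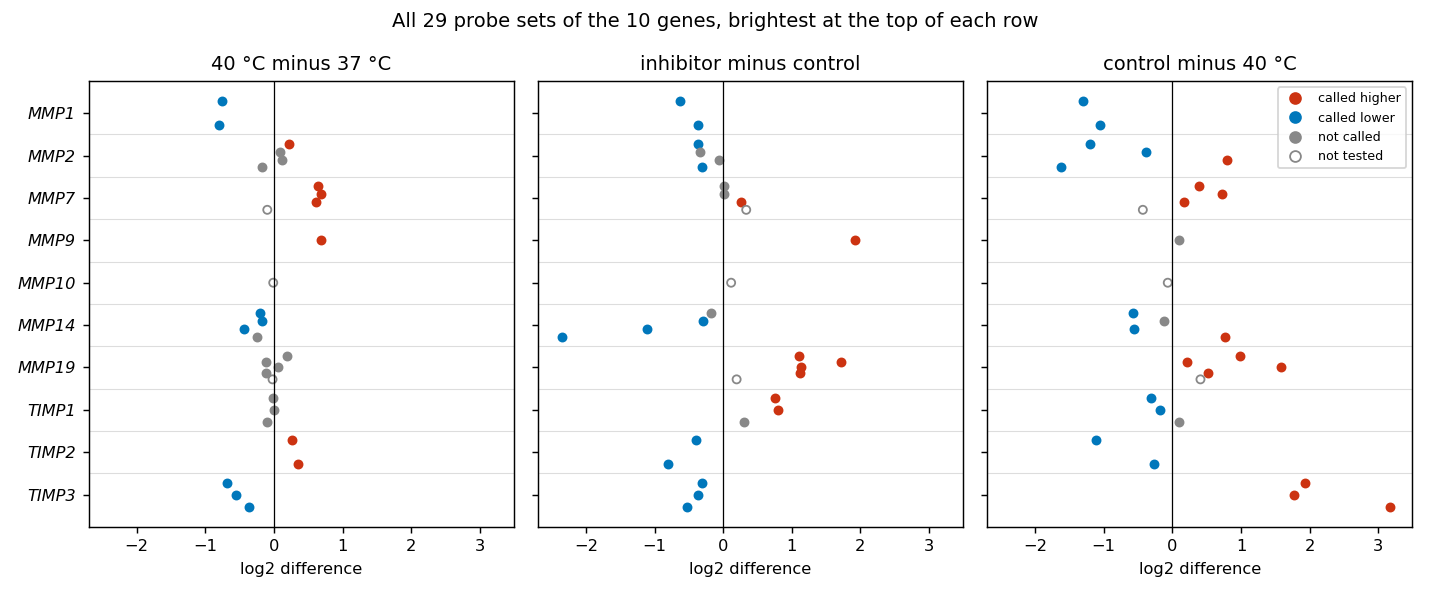
Log2 differences of all 29 probe sets (points) of the 10 genes in the 3 comparisons, with the brightest probe set at the top of each gene's row and coloured by call. Probe sets of MMP1, MMP9, TIMP2 and TIMP3 fall on 1 side of 0 within each comparison, whereas those of MMP14 spread from −2.35 to −0.17 with the inhibitor.

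Among related genes, none of the 7 other MMPs tested was called with the inhibitor. Of 6 other inhibitors 2 were lower, TIMP4 by 2.91-fold (adjusted p = 4.21e-05) and the protease trap A2M by 1.33-fold (0.000716). The plasminogen system had 3 higher and 3 lower of 8, with PLAU 1.64-fold and the protease inhibitor SERPINE2 1.79-fold lower. ADAM proteases had none higher and 5 lower of 11, among them the sheddase ADAM10 by 2.61-fold and ADAMTS4 by 3.83-fold. AP-1 and ETS factors had 8 higher and 1 lower of 13. FOS was 5.11-fold higher (adjusted p = 1.3e-06) and ELK3 1.58-fold. JUN was 1.48-fold higher at its brightest probe set, but the mean of its probe sets differed by −0.20 and was not called (adjusted p = 0.1), nor was that of ELK3 (0.0524). MMP partners and receptors had 5 higher and 2 lower of 13, with TGFBI 2.14-fold and the MMP9-docking receptor CD44 1.48-fold higher. Matrix genes had 1 higher and 2 lower of 13, with SPP1 1.69-fold and NID1 1.65-fold lower. Of the called genes named in this paragraph, only FOS passed with the spike covariate (2.25, adjusted p = 0.00887), in the fit that separates spike level and group poorly.

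Macrophage markers had 1 higher and 5 lower of 7 with the inhibitor (list means of 9.45 to 9.57 against 10.13 to 10.18 in controls), and granulocyte precursor markers 4 lower of 4 tested (6.31 to 6.47 against 7.89 to 7.98). LYZ, the lysozyme gene, was 5.07-fold and the integrin gene ITGAM 1.69-fold lower, and CSF1R was called higher (0.28) but not with the mean of its probe sets (−0.19). MMP9, MMP19 and TIMP1 thus rose on arrays where most of these markers fell, and the part of the marker differences was not tested.

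The third comparison set the controls of the inhibitor experiment against the untransfected 40 °C cells. Both were at 40 °C by the protocols, and nucleofection, sorting and time all go with the group and cannot be told apart. End gaps also differed between controls and 40 °C cells (actin 2.44 against 1.58, GAPDH 1.04 against 0.44), as did mean spike levels (7.07 against 7.77). Their part in the differences below was not tested. The third comparison shares its arrays with the others. In the controls TIMP3 was 3.84-fold and MMP19 1.99-fold higher and MMP7 1.31-fold higher, whereas MMP1 was 2.47-fold, MMP2 2.30-fold, TIMP2 2.16-fold, MMP14 1.49-fold and TIMP1 1.25-fold lower. Of the 9 tested genes 3 were higher and 5 lower, where 36.9% of all genes were called higher and 37.9% lower, and over probe sets 12 and 11 of 26 were, against 38.4% and 36% of all. So many genes differed between the experiments that these counts set nothing apart.

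TIMP3 had the largest difference of the 10 genes here, 1.94 (SE 0.07, adjusted p = 1.42e-07), and its 3 probe sets were higher by 1.94, 1.78 and 3.18. Its differences with temperature and with the inhibitor were −0.69 and −0.30. MMP9 was the tested gene that was not called, at 0.09 (SE 0.05, adjusted p = 0.159), with 8.94, 8.90 and 8.85 in controls and 8.85, 8.81 and 8.76 at 40 °C, although it was called after quantile normalization (0.14, adjusted p = 0.0275). MMP2 probe sets disagreed in sign: 3 were called lower (−1.20, −0.38 and −1.62) and 1 higher (0.80). Both TIMP2 probe sets were lower (−1.11 and −0.26). The average over the MMP14 probe sets differed by −0.12 and did not pass (adjusted p = 0.108).

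Among related genes TIMP4 was 5.16-fold higher and RECK 3.15-fold lower in the controls, among 3 higher and 3 lower of 6 inhibitors. Further MMPs had 2 higher of 7, MMP13 (0.87) and MMP25 (0.26). MMP13 lost its call when its probe sets were averaged (0.06). MMP25 lost its call after quantile normalization (0.06), after median centring (0.17) and in a fit of all 12 arrays. The plasminogen system had 5 higher and 1 lower of 8, with PLAUR 1.55-fold and the proprotein convertase FURIN 1.45-fold higher. ADAM proteases had 5 higher and 4 lower of 11, with ADAMTS4 4.15-fold and ADAMTS1 2.50-fold lower. AP-1 and ETS factors had 8 higher and 4 lower of 13, with JUN 1.20-fold higher, FOS 1.19-fold and ELK3 1.80-fold lower, and ETS1 1.82-fold lower at its brightest probe set but higher by 0.36 with the mean of its probe sets. Partners and receptors had 5 higher and 3 lower of 13, with CD82 2.66-fold higher and TGFBI 3.56-fold lower. Matrix genes had 8 higher and 4 lower of 13, with NID1 3.16-fold higher and the proteoglycan VCAN 5.74-fold lower. Macrophage markers had 3 higher and 4 lower of 7, and granulocyte precursor markers 4 higher of 4 tested.

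Across the 4 groups the genes followed different orders, given here for the brightest probe set unless stated. MMP9 was lowest at 37 °C, next and overlapping at 40 °C and in controls, and highest with the inhibitor. MMP7 rose from 37 °C through 40 °C to the inhibitor experiment, where its groups overlapped. MMP1 was highest at 37 °C, then at 40 °C, in controls and with the inhibitor, with no overlap between neighbours in that order. The brightest MMP14 probe set had the same order, but the faintest was highest in controls and the second brightest overlapped between 40 °C and controls. The brightest probe sets of MMP2 and TIMP2 went from 40 °C through 37 °C and controls down to the inhibitor. Some other probe sets of both genes gave other orders, with the mean of controls above that at 37 °C for the second TIMP2 probe set. MMP19 was lowest and overlapping at both temperatures of the untransfected cells, higher in controls and highest with the inhibitor. TIMP1 was lowest in controls, overlapping at 37 °C and 40 °C, and highest with the inhibitor, and TIMP3 was lowest at 40 °C, then 37 °C, inhibitor and controls. Whether a gene's difference with temperature and its difference with the inhibitor were themselves unequal was not tested.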

How the data were processed

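The deposited table holds the authors' log2 expression values of 49395 probe sets on 12 arrays, 1 column per sample. The unit was read from the values. How the authors corrected background, normalized and summarised them, with which software and build, was not given in the sources used here. Gene names came from the platform table, and all 10 symbols matched RefSeq's current ones by gene number. Each comparison was fitted across all genes past the filter by lmFit and eBayes of limma 3.58.1 under R 4.3.3 (two-sided, no block, 3 arrays against 3) at an adjusted p of 0.05, and again over every probe set past the filter. Folds are 2 to the power of a log2 difference, and a group's error is its SD. With 3 arrays a group, their number limits the precision. The genes, lists, alternatives and tests were chosen with earlier results of these data known. For each pathway list the text gives up to 2 called genes with the smallest p, besides FOS, JUN and MMP12. LYZ, ITGAM, CSF1R, PDGFRA, PDGFRB, CLDN4, KRT5 and NKG7, from the marker lists, were named after their values were seen. Simulated data over 13909 genes had independent normal noise and 50 genes changed at each of the sizes 0.25, 0.5, 1 and 2. Of the 50 changed by 0.5, 88% were recovered for temperature, 68% for the inhibitor and 82% for the third comparison. Far fewer genes were changed there than were called in the data (5472, 6290 and 10405). The adjusted p depends on that share, so these percentages do not give the recovery in the data. Alternatives were another or no filter, averaging over the probe sets of a gene, a fit of every probe set, quantile normalization, median centring, trend and robust eBayes, array weights, 1 fit of 12 arrays, the replicate block, a covariate of 24 poly-A spike probe sets, and leaving out each array. Figures used matplotlib 3.10.9.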

Additional observations from a re-analysis of the deposited data

How the results depend on the processing

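Of 456 values of the 9 tested genes under the alternatives, 417 kept their side of the threshold, 33 lost a call and 6 gained one. Of the 417, 6 changed sign, all of them uncalled values (lowest adjusted p 0.773), for MMP19 and TIMP1 at 40 °C, MMP7 with the inhibitor and MMP9 in the third comparison. MMP2 at 40 °C lost its call in 10 of 17 alternatives, and with the inhibitor MMP14 lost it in 11 and MMP2 in 6. The calls of MMP7, MMP9 and TIMP3 at 40 °C and of MMP9 and MMP19 with the inhibitor held in every alternative run. Those of MMP1 at 40 °C and with the inhibitor held in all 16 alternatives that tested it. With the poly-A spike covariate 2673 genes were called for temperature (5472 without it), with 2 of the 10 genes higher. For the inhibitor 236 were called (6290 without it), with 1 of the 10 lower. In both of these comparisons spike level and group are poorly separated. The cause of the lost calls was not tested. Leaving out 1 array gave 3 to 4 of the 10 genes lower with the inhibitor, against 5, and such fits have fewer arrays. Deviations of same-numbered arrays correlated at −0.13 to 0.23 for temperature, −0.60 to −0.15 for the inhibitor and −0.10 to 0.24 for the third comparison. Not every array correlated best with its own number. The replicate numbers thus showed no pairing, but deviations centred within 3 arrays a group are too few to exclude it. With the replicate block 4955, 4780 and 10497 genes were called, with 3 of the 10 genes lower for the inhibitor. The block ended the inhibitor calls of MMP2 (adjusted p = 0.0526) and MMP14 (0.155) and the temperature call of MMP2 (0.0758), gave MMP19 a call at 40 °C (0.0485), and changed no other call of the 10 genes. Quantile normalization and median centring moved the median of all genes by less than 0.1. MMP1 was not tested with the 50th percentile filter. MMP10 was not tested for its low signal, and the brighter MMP1 probe set had a mean below the filter's signal with the inhibitor.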
